A study of Mus musculus with 6 samples.

Results

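The 40S subunit of the cytosolic ribosome holds the 18S ribosomal RNA and a set of proteins named Rps in the mouse, and the genes of 30 of these proteins were compared between hearts with and without Elac2. Members were the protein-coding genes of the deposited table whose symbol is Rps followed by a number, with the endings a, a1 or x allowed, and Rpsa. They make up 30 of the 51888 genes and other features counted, and 1 further gene of that naming was not analysed here. Elac2 encodes RNase Z, the endonuclease that cuts the 3′ ends of precursor tRNAs in the nucleus and in mitochondria. Total RNA of whole hearts was sequenced in 3 knockout mice, labelled Elac2 -/- and L/L with cre, and in 3 control mice, labelled Elac2 +/+ and L/L without cre. All mice were C57BL/6, and their age is not given. In the knockout mice a loxP-flanked exon was removed by cre from the muscle creatine kinase promoter, which is active in striated muscle, so other cells of the heart may keep Elac2. Each library is 1 mouse.

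The small subunit binds the mRNA, scans for the start codon and decodes, and most of its proteins lie on the outside of the folded 18S RNA. The head carries proteins at the A and P sites, and the body and platform carry those at the decoding centre. Proteins of both parts lie at the mRNA entry and the mRNA exit. In mammals the mRNAs of these proteins start with a C followed by a run of pyrimidines, the 5′ terminal oligopyrimidine tract, through which mTORC1 and Larp1 control their translation. Their genes are also known for many processed pseudogenes, intron-less copies of the mRNA that lie elsewhere in the genome.

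The starts of the genes that changed most and least are shown first, so that their letters can be set against the values that follow. Of the 30 genes, 22 have an entry in the RefSeq promoter table (GRCm38.p6), with 26 annotated starts. Each line gives 60 bases, 40 before the annotated start and 20 from it, 5′ to 3′ on the gene's strand, and the capitals mark the longest run of C and T. Among genes with an entry, Rps28, Rps24 and Rps3 had the largest log2 fold changes.
Rps28 (chr17:33824543-33824602, minus strand): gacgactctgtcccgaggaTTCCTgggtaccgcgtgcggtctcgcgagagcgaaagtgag
Rps24, upstream start (chr14:24490638-24490697, plus strand): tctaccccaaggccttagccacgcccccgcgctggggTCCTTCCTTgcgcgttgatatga
Rps24, downstream start (chr14:24490713-24490772, plus strand): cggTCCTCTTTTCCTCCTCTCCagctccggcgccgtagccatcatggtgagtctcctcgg
Rps3 (chr7:99483690-99483749, minus strand): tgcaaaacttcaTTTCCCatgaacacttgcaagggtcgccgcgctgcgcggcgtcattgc

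Rps15, Rps13 and Rps2 had the smallest log2 fold changes among genes with an entry.
Rps15 (chr10:80292391-80292450, plus strand): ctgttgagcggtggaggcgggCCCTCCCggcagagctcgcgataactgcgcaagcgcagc
Rps13 (chr7:116334171-116334230, minus strand): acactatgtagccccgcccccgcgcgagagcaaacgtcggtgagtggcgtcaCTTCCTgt
Rps2 (chr17:24720023-24720082, plus strand): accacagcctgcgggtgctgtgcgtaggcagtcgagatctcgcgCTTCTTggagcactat

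In Rps18, Rps6 and Rps10 a run of C and T lies across the annotated start, and these 3 were chosen after their sequences were seen, to show what such a tract looks like.
Rps18 (chr17:33955646-33955705, minus strand): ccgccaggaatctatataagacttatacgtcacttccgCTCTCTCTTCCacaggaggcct
Rps6 (chr4:86857348-86857407, minus strand): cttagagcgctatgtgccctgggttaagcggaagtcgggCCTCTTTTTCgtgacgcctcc
Rps10 (chr17:27635225-27635284, minus strand): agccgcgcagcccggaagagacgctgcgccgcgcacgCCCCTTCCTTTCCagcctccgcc

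A run of at least 8 C or T on the sense strand of the 60-base window was found in 12 of the 22 genes (54.5%), against 27.2% of 27025 genes in the table. On the opposite strand 1 of the 22 (4.5%) held such a run, against 28.3% of all genes. Runs were found in Rps24, Rps18, Rps6 and Rps10, and no run of that length in Rps28, Rps3, Rps15, Rps13 or Rps2, so genes without one stand at both ends of the range of log2 fold changes. The median log2 fold change was 0.90 for the 12 genes with a run (0.75 to 1.06) and 0.85 for the 10 without (0.46 to 1.07). The letters CCGGAAG, a core bound by ETS factors such as Gabpa, were searched on both strands of the 300-base window and can overlap a pyrimidine run, and 10 of the 22 genes (45.5%) held them, against 9.93% of all genes. The letters AAGATGG, a core bound by Yy1, were found on either strand in 4 of the 22 (18.2%), against 7.28% of all genes. An annotated start can differ from the start used in heart, and a match is a description of these letters.

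Transcripts of the small subunit proteins were higher in knockout hearts with 1 exception. By edgeR's quasi-likelihood test, with p-values adjusted over all genes by Benjamini-Hochberg and a threshold of 0.05, 29 of the 30 genes rose, none fell, and Rps29 was not called. None was lower at an unadjusted p under 0.05 either, nor called lower by DESeq2 or limma-voom. The median log2 fold change of the 30 genes was 0.91, a fold of 1.87, and the quartiles were 0.78 and 1.01. Over all 14302 genes tested the median was -0.01 and the quartiles were -0.42 and 0.37. Of those genes 36.5% were called, 18.7% higher and 17.8% lower, and 26.2% had all 3 knockout libraries above all 3 control libraries, which 29 of the 30 small subunit genes had. Of the 30, 28 were at least 1.5 times higher in knockout hearts and 9 at least 2 times. The hearts were whole, so a change in the number of cells of a type and a change in RNA per cell cannot be told apart.

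**Figure D1:**
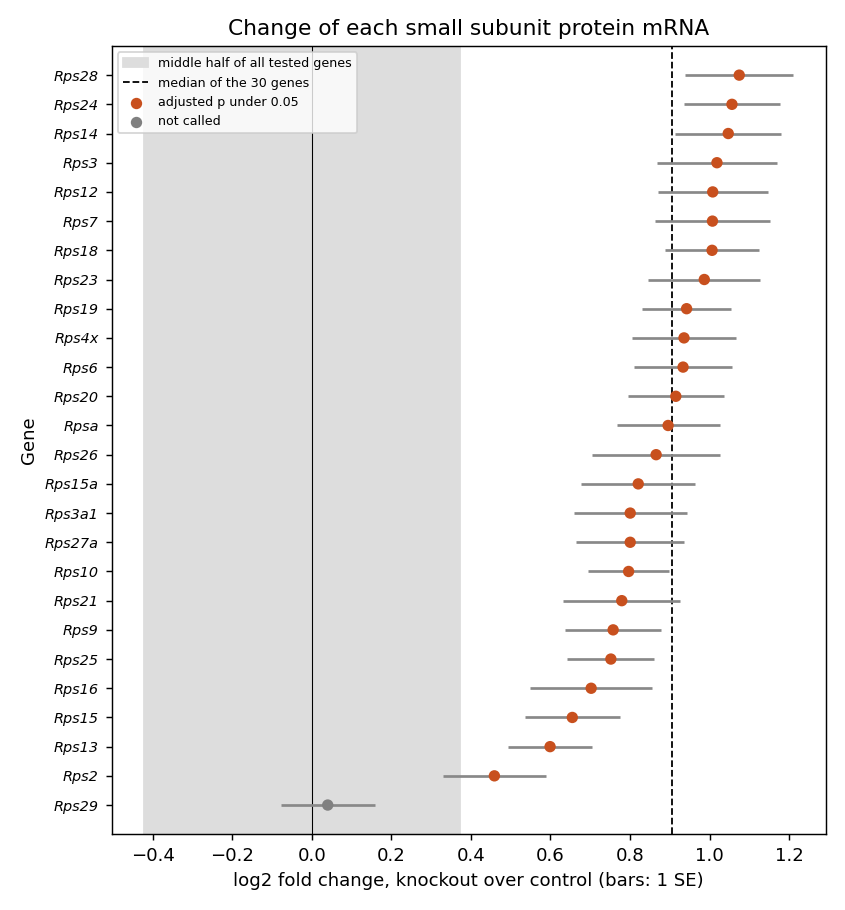
Log2 fold change, knockout over control, of 26 small subunit protein genes (x axis; bars are 1 SE, 3 hearts a group), from the highest value at the top. The median of all 30 is 0.91, against quartiles of -0.42 and 0.37 over all tested genes (grey band), and Rps29, in grey, lies at 0.04.

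The targeted gene was lower in the libraries labelled knockout. Elac2 was at 5.36, 5.63 and 6.52 CPM in knockout hearts, against 15, 14 and 13 CPM in control hearts (log2 fold change -1.27, SE 0.15, adjusted p = 2.12e-04 in edgeR's quasi-likelihood test). Levels are given in CPM, for which library sizes were first multiplied by the TMM factor. Library totals were 9850100 to 14461110 counts in knockout hearts and 12057962 to 14276410 in control hearts. Features encoded by the mitochondrial genome took 34.9 ± 1.68% of counts in knockout hearts and 56.3 ± 6.16% in control hearts (SD, n = 3 each), so nuclear genes were counted more deeply in knockout hearts. The lowest count of a small subunit gene in any library was 228 and the highest 5261. Scaling by library size alone raised the median log2 fold change of all tested genes to 0.68 and that of the 30 genes to 1.59, and under every other scaling the median of the 30 genes was between 0.90 and 0.92.

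The summed level of the 30 genes was 3811 ± 210.4 CPM in knockout hearts and 2075 ± 183 CPM in control hearts (SD, n = 3 each), a ratio of the means of 1.84. As a share of counts on nuclear genes, they took 0.746 ± 0.0326% in knockout hearts and 0.374 ± 0.0436% in control hearts. This share uses no TMM factor, but it depends on the levels of all other nuclear genes. The lowest knockout library held 0.723% and the highest control library 0.419%, so the groups did not overlap. The summed small subunit level was 0.731 ± 0.0109 of the summed large subunit level in knockout hearts and 0.748 ± 0.0058 in control hearts. The largest of the knockout ratios, 0.743, lay above the smallest of the control ratios, 0.741, and the groups overlapped. For a single library, counting error gave the shares of nuclear counts a 95% Wilson interval of at most 0.00669 percentage points to either side, and mitochondrial shares one of at most 0.0301.

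**Figure D2:**
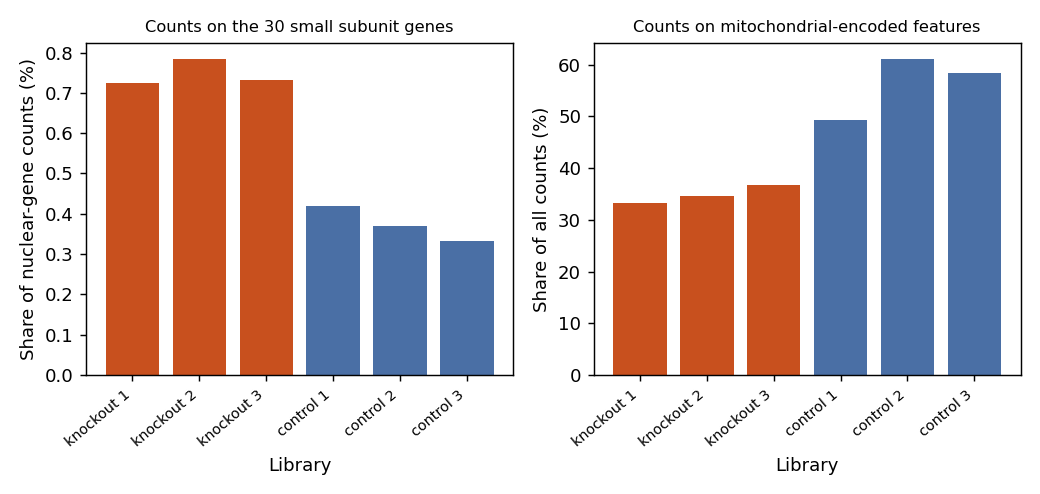
Share of nuclear-gene counts on the 30 small subunit protein genes (left) and share of all counts on mitochondrial-encoded features (right), in percent, 1 bar a library. Small subunit shares lie between 0.723% and 0.784% in knockout hearts and between 0.333% and 0.419% in control hearts, while mitochondrial shares are lower in all 3 knockout hearts.

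Rps28 and Rps24 were among the genes with the largest log2 fold changes. Rps28 encodes a small protein at the mRNA exit. Rps28 was at 62.3, 75 and 70.6 CPM in knockout hearts, against 38.3, 29.3 and 30.8 CPM in control hearts (log2 fold change 1.07, SE 0.14, adjusted p = 3.05e-04). Its groups lay well apart, with knockout 1 the lowest knockout library and control 1 the highest control library. Rps24 encodes a protein of the body and is mutated in some families with Diamond-Blackfan anaemia, a human disease of ribosomal proteins. It was at 176, 200.1 and 205 CPM in knockout hearts, against 99.7, 92.5 and 87.2 CPM in control hearts (log2 fold change 1.06, SE 0.12, adjusted p = 1.87e-04).

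Rps29, which encodes a small zinc-binding protein of the head, was the 1 member that did not pass the test. Rps29 was at 79.0, 86.2 and 85.3 CPM in knockout hearts, against 91.1, 75.5 and 76.9 CPM in control hearts. The highest value belonged to control 1 and the groups overlapped (log2 fold change 0.04, SE 0.12, adjusted p = 0.82). An interval of 2 SE ran from -0.20 to 0.28. The next lowest member, Rps2, was at 0.46 with an interval from 0.20 to 0.72, which overlaps that of Rps29. Among the counts on the 30 genes, Rps29 took 2.14%, 2.13% and 2.32% in the knockout libraries and 3.99%, 3.76% and 3.97% in the control libraries. This share uses no library scaling, but it falls when the other genes of the set rise, so it is not separate evidence. These shares did not overlap, and neither did their 95% Wilson intervals, which reached up to 2.46% in knockout and down to 3.49% in control libraries. Such intervals cover counting error only. With library size alone Rps29 was called higher (log2 fold change 0.72, adjusted p = 0.0054), at about the median of all genes under that scaling (0.68).

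Copies of Rps29 lie elsewhere in the genome (the gene itself is at chr12:69157722-69159186, minus strand, mm10). The annotation holds 6 near-identical processed pseudogenes, among them Gm14303, identical over all 171 coding bases, and Gm7618 and Gm10059, each 98.2% identical. The 6 copies held 7.37% of the reads counted on gene and copies together in knockout hearts and 9.02% in control hearts. With their counts added to those of Rps29 the log2 ratio of mean CPM was 0.02 in place of 0.04. The counting of reads with several matches is not given in the labels or headers.

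Rps2 and Rps13 had the smallest changes among the genes that were called. Rps2 encodes a protein at the mRNA entry that is methylated by Prmt3. It was at 150.0, 131 and 122 CPM in knockout hearts, against 108, 96.6 and 88.3 CPM in control hearts (log2 fold change 0.46, SE 0.13, adjusted p = 0.0206). The groups did not overlap, but the call was lost without knockout 2 (adjusted p = 0.0527), without control 2 (0.0779) and without control 3 (0.0785). Rps2 also has 23 near-identical copies in the annotation, as many as Rps12. Those counted held 7.06% of the reads on gene and copies in knockout hearts and 8.18% in control hearts. With their counts added, the log2 ratio of mean CPM for Rps2 was 0.44 in place of 0.46. Rps13, a protein of the body that binds the central domain of the 18S RNA, was at 71.6, 73.6 and 72.1 CPM in knockout hearts, against 51.2, 47.4 and 44.7 CPM in control hearts (log2 fold change 0.60, SE 0.11, adjusted p = 0.002). Its 3 knockout libraries lay within 2 CPM of each other.

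**Figure D3:**
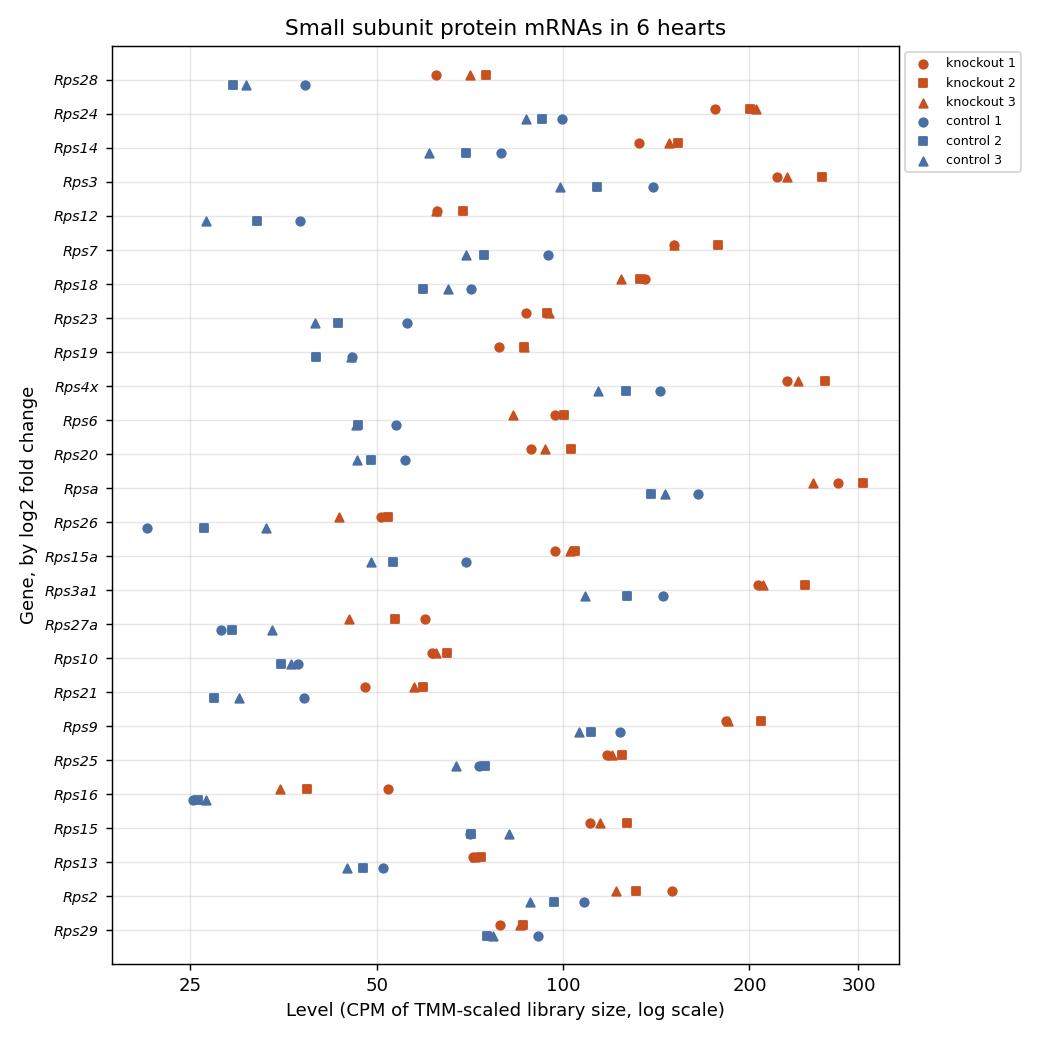
Level of each of 26 genes in the 3 knockout libraries (orange) and the 3 control libraries (blue), in CPM on a log scale, ordered by log2 fold change. The groups lie apart for 25 of the 26 and overlap for Rps29 at the bottom.

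Among the 14 proteins of the head, 13 genes rose, with a median log2 fold change of 0.90. They include Rps3 at the mRNA entry (1.02), Rps12 of the beak (1.01), Rps18 (1.01), Rps19, the gene most often mutated in Diamond-Blackfan anaemia (0.94), and Rps20 (0.92). Lower values in the head belonged to Rps27a, whose product is made as a fusion to ubiquitin (0.80), Rps10 (0.80), Rps25 (0.75), Rps16, whose tail reaches the P site tRNA (0.70), and Rps15 near the A site (0.65). All 16 genes of the body and platform rose, with a median of 0.91. They include Rps14, a platform gene deleted in human 5q- syndrome (1.05), Rps7 (1.01) and Rps23 of the decoding centre (0.99). Rps4x, on the X chromosome, was at 0.94, and Rps6, the substrate of the S6 kinases, at 0.93. Lower values belonged to Rpsa, also known as the laminin receptor (0.90), Rps26 at the mRNA exit (0.87), Rps15a (0.82), Rps3a1 (0.80), Rps21 (0.78) and Rps9 at the mRNA entry (0.76). The 28 called genes other than Rps2 had adjusted p-values of at most 0.006 in edgeR, and SEs over the 30 genes ran from 0.10 to 0.16, so most neighbours in this order do not differ beyond their error.

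Levels were compared between genes per kilobase of coding sequence. Counts are of whole genes, untranslated parts included, so a short coding sequence can raise this value. Rps29 has 171 coding bases, against 402 in Rps24 and 585 in Rps9. In control hearts Rps29 stood highest at 475 CPM per kilobase, before Rps24 at 232 and Rps9 at 194, and Rps16 stood lowest at 58.5. In knockout hearts Rps29 was at 488 and Rps24 at 482 CPM per kilobase. Rps16 was again the lowest at 95 CPM per kilobase. Rps9 was at 183, 208 and 185 CPM in knockout hearts, against 124, 111 and 106 CPM in control hearts, and was 1.69 times higher with groups that lay apart (adjusted p = 0.0012). Across the 30 genes the log2 fold change and the log2 control level per kilobase had a Pearson r of -0.27, and of 0.20 without Rps29, as a description over genes that share their libraries.

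**Figure D4:**
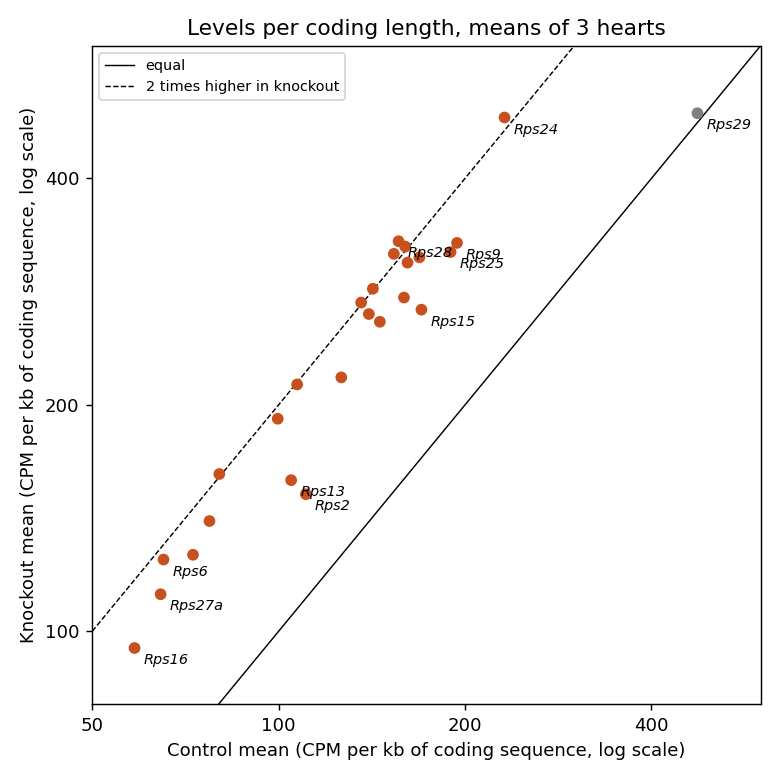
Mean level per kilobase of coding sequence in knockout hearts (y axis) against control hearts (x axis), in CPM per kilobase on log axes, for 26 genes (means of 3 hearts). Most genes lie near the dashed line of 2 times higher in knockout hearts, and Rps29, in grey, lies near the line of equal levels.

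Libraries of a group moved together across the genes. Knockout 2 was the highest knockout library for 24 of the 30 genes and the lowest for none, and control 1 was the highest control library for 25. Control 1 also had the lowest mitochondrial share of the controls, 49.3%, against 61.1% and 58.5% in control 2 and control 3. Rps16, Rps26 and Rps27a went the other way in the controls, with control 1 the lowest and control 3 the highest library, as did Rps15. Knockout 1 was the highest knockout library for Rps16, Rps18, Rps2 and Rps27a. Rps16 was at 52.2, 38.6 and 34.9 CPM in knockout hearts, against 25.3, 25.7 and 26.5 CPM in control hearts, so its spread was mostly among knockouts. Without knockout 1 its log2 fold change was 0.51 in place of 0.70 and it stayed called. Rps26 was at 50.8, 52.1 and 43.4 CPM in knockout hearts, against 21.3, 26.3 and 33.1 CPM in control hearts, the widest relative spread among the controls and the largest SE of the 30 (0.16).

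Near-identical copies and overlapping genes touch the counts of some members. Copies at 95% identity over at least 50% of the coding bases held the largest shares for Rps26 (31.3% of the reads on gene and copies, pooled over the knockout hearts, and 35.4% over the control hearts), Rps10 (23.9% and 24.6%) and Rps6 (20.4% and 21%). With the copies' counts added, the log2 ratio of mean CPM was 0.79 in place of 0.86 for Rps26. It was 0.78 in place of 0.80 for Rps10, and 1.10 in place of 1.06 for Rps24 (copy shares 18.5% and 15.7%). How reads with several matches were counted is not given, so the uncertainty may be larger than these shifts. Exons overlap a gene on the opposite strand in Rps25 (Trappc4 and Ccdc84), Rps18 (Vps52), Rps27a (Clhc1), Rps28 (Kank3), Rps10 (Gm15420) and Rps2 (Snhg9), and without a stated strand setting such reads cannot be told apart. Rps10 shares 20.6% of its exon bases with a read-through gene on its own strand. The search for copies did not exclude such genes, so the copy share of Rps10 may include it. The annotation places small nucleolar RNA genes inside 10 of the 30 genes, as in Rps12 with 3.

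Other components of the small subunit rose as well. All 4 tested genes of that list were higher, with a median log2 fold change of 0.92. Rack1, the scaffold protein of the head, was at 293, 330 and 291 CPM in knockout hearts, against 169, 155 and 140.0 CPM in control hearts (log2 fold change 0.98). Fau, which encodes the small subunit protein eS30 as part of a fusion, was 1.60 times higher (0.68). Rps27l and Rps4l had log2 fold changes of 1.47 and 0.87. Of the 47 large subunit protein genes 45 rose and none fell in edgeR, DESeq2 or limma-voom or at an unadjusted p under 0.05, with a median of 0.88, close to the 0.91 of the small subunit. Rpl3, at the peptidyl transferase centre, had the largest value (1.76), and Rpl35 (1.20), Rpl10 (1.10) and Rpl38, which was 2.24 times higher, were also among the 4 with the smallest p. The 2 not called, named after their values were seen, were Rpl28 (-0.07, adjusted p = 0.76) and Rpl29 (0.32, adjusted p = 0.0686).

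Factors that assemble the small subunit rose too. Of 39 tested, 33 were higher, with a median log2 fold change of 0.77. None was lower in edgeR, DESeq2 or limma-voom or at an unadjusted p under 0.05. Leaving out 1 library gave 25 to 31 higher. Nop58, a core protein of box C/D small nucleolar RNPs, was at 52.8, 53.1 and 53.2 CPM in knockout hearts, against 17.9, 16.9 and 16.6 CPM in control hearts (log2 fold change 1.63). Its libraries hardly varied within a group. Also higher were Rrp12 (2.02), known in yeast for export of the subunit, Rrp7a (1.23) and Pno1 (1.18). Pno1 assists the last cleavage of the 18S precursor. These genes were named for their small p, and their knockout libraries all lay above all control libraries, as in 26.2% of all tested genes. Among 16 tested chaperones, modifying enzymes and kinases of small subunit proteins, 7 rose and 2 fell, with a median of 0.32. Of these, Prmt3, the methyltransferase of the Rps2 protein, was at 1.18, Pdcd2, a dedicated chaperone of that protein, at 1.42, Prmt5, which methylates the Rps10 protein, at 0.49, and Zfp598, the ubiquitin ligase that marks Rps10 and Rps20 on stalled ribosomes, at 0.60. That count dropped to 4 higher and 0 lower without knockout 2 and likewise without control 2, with 1 lower without knockout 3, control 1 or control 3 and 4 lower without knockout 1, and it was 11 higher and 0 lower with library size alone.

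Other mRNAs known for a 5′ pyrimidine tract rose in part. Of 20 tested, 14 were higher and none called lower in edgeR or limma-voom, with 1 lower in DESeq2 and at an unadjusted p under 0.05, and the median log2 fold change was 0.74. Without knockout 1 there were 2 called lower, and without control 1 there was 1. Eef1a1, which delivers tRNAs to the ribosome, was at 1689, 2072 and 1819 CPM in knockout hearts, against 457, 425 and 434 CPM in control hearts (log2 fold change 2.08). Gas5, a host gene of small nucleolar RNAs, was at 1.38, Btf3 at 1.34 and Npm1, a nucleolar protein, at 1.19. The lowest, at -0.60, was Naca (adjusted p = 0.0766, named after its value was seen). The genes of mTORC1 and its regulators went both ways, with 4 of 16 higher, 4 lower and a median of 0.01, or 10 higher and 1 lower with library size alone. Sesn2, an inhibitor of mTORC1 under amino acid shortage, was at 20.5, 20 and 16.7 CPM in knockout hearts, against 2.03, 1.67 and 2.21 CPM in control hearts (log2 fold change 3.27). Eif4ebp1 (1.65) and Akt1s1 (0.84) were higher and Eif4ebp2 was lower (-1.61). The 4 lower calls became 2 without knockout 2, knockout 3 or control 3 and 1 without control 2.

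**Figure D5:**
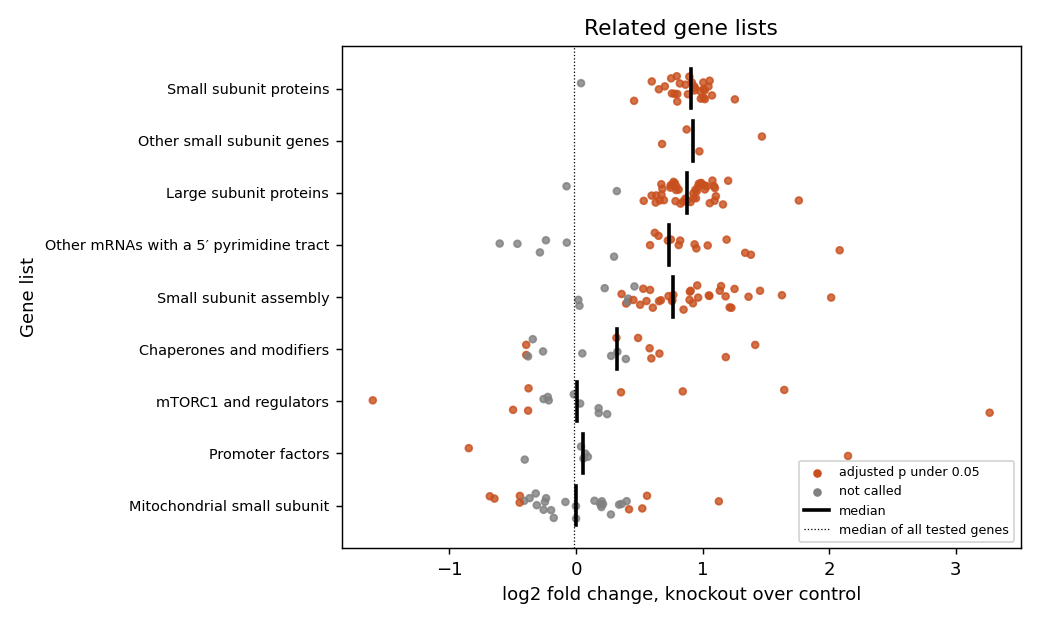
Log2 fold change, knockout over control, of every tested gene of the small subunit protein set and of 8 related lists (1 point a gene, orange where adjusted p is under 0.05, black bar at the median). Small and large subunit proteins have medians of 0.91 and 0.88, and mitochondrial small subunit proteins have a median of 0.00.

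The small subunit proteins of the mitochondrial ribosome, which are also made from nuclear genes, did not share the shift. Of 30 tested, 4 rose and 4 fell, and their median log2 fold change was 0.00; library size alone called 18 higher and 0 lower, and 30 of 30 higher in the cytosolic set. Mrps18b (1.13) and Chchd1 (0.52) were higher, and Mrps35 (-0.68, or 0.01 with library size alone) and Mrps15 (-0.64, or 0.07) were lower. The counts dropped to 1 higher without knockout 2, to 2 higher without control 2 or control 3, and to 2 lower without control 1. Chchd1 was not called without knockout 2, nor Mrps15 without control 3. Of 7 tested factors that bind promoters of this kind, Myc rose (14.5, 7.26 and 7.25 CPM in knockout hearts, against 1.96, 1.67 and 3.02 CPM in control hearts, log2 fold change 2.15), and Max, its partner, fell (-0.85, or -0.14 and not called with library size alone). The other 5, among them Gabpa and Yy1, were not called, and library size alone called 5 of the 7 higher and none lower.

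Markers of the heart's cell types moved with the groups as well, and their part in the values above was not tested. The defining genes of cardiomyocytes were all detected, and summed to 19244 to 21613 CPM in knockout hearts and 39532 to 41137 CPM in control hearts. Of 8, 4 fell, and none rose in edgeR, DESeq2 or limma-voom or at an unadjusted p under 0.05. The 4 were Ryr2 (-1.61), Myh6 (-1.32), Pln (-0.99) and Actc1 (-0.70). With library size alone, 2 of the 8 were called lower, and Pln (-0.31) and Actc1 (0.01) were not called. Actc1 was not called without knockout 2, knockout 3, control 2 or control 3 either, nor with the replicate block.

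Endothelial markers summed to 342 to 407 CPM in knockout hearts and 468 to 540.3 CPM in control hearts, and 3 of 6 were called lower, Kdr (-0.96), Cdh5 (-0.54) and Tek (-0.43). With library size alone none was lower and 2 were higher, and Kdr (-0.26), Cdh5 (0.19) and Tek (0.26) were not called. Cdh5 was not called without knockout 2, knockout 3, control 2 or control 3, nor Tek without knockout 2, control 1 or control 2. With the replicate block 1 of the 6 was lower, and neither Cdh5 nor Tek was called. The groups of Cdh5 overlapped, with knockout 1 at 86.0 CPM and control 1 at 79.0 CPM. Smooth muscle and pericyte markers summed to 539 to 631 CPM in knockout hearts and 796 to 1016 CPM in control hearts, with Acta2 (-1.65) and Rgs5 (-0.44, or 0.26 with library size alone) lower and Cspg4 (0.72) higher, against 1 lower and 2 higher with library size alone. Leaving out any single library other than control 3 ended the call of Rgs5, as did no filter and the replicate block. Leaving out knockout 2 or any 1 control ended that of Cspg4, as did the robust fit.

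Erythroid markers summed to 1440 to 2942 CPM in knockout hearts and 522 to 1795 CPM in control hearts, which overlap, and 1 of 7 was higher, Alas2 (0.81). That count varied with the processing, from 0 with the robust fit, the filter of 50 counts, or without knockout 2, knockout 3, control 1 or control 2, to 2 without control 3, 3 with the replicate block, 5 with no filter and 7 with library size alone. None of 6 fibroblast markers was called in edgeR, DESeq2 or limma-voom or reached an unadjusted p under 0.05, and they summed to 691 to 1198 CPM in knockout hearts and 524 to 770 CPM in control hearts. All 6 were called higher with library size alone and 1 with no filter, and without knockout 1 there were 2 called higher, among them Dcn (0.47), and 1 lower, and without knockout 3 there was 1 higher. The 8 listed leukocyte markers summed to 70.8 to 91.2 CPM in knockout hearts and 68.2 to 86.7 CPM in control hearts. None of the 5 tested was called by these tools, and 1 in each direction reached an unadjusted p under 0.05. With library size alone 3 were called higher, among them Adgre1 (1.10), which was also called with no filter, and 1 was called lower without knockout 3. No marker of any list was at 0 in all libraries.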

How the data were processed

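Total RNA of 6 mouse hearts was made into paired-end TruSeq libraries, with technical replicates merged into 1 column per mouse, per the labels and the series design. The submitters' processing notes list featureCounts 1.5.1, HISAT2 2.0.5, DESeq2 1.16.1 and SAMtools 1.5, with the mm10 build. The strand setting and the handling of reads with several matches are not given in the sources used here. The authors deposited whole-number counts per gene, without normalisation, which were the input here. The authors' deposited table of log2 fold changes with adjusted p-values served to find the members and as an alternative, and it also called 29 members higher and none lower.

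Counts were tested with edgeR 4.0.16 in R 4.3.3 (TMM scaling, filterByExpr with a minimum count of 10, quasi-likelihood test, no block), knockout against control, with Benjamini-Hochberg adjustment over all 14302 genes tested. Levels are CPM of the scaled library size, and the SE is the log2 fold change divided by the square root of F. The test was tried on simulated counts. Groups come from the sample titles, and chi-square per degree of freedom was at least 8.85 between libraries of a group, so each counted as 1 replicate. The members and lists were chosen with earlier results of these data known. Of the 30 members, 4 enter all totals and are not reported singly here. The other 26 are named, and from other lists up to 4 called genes with the smallest adjusted p or, where none was called, at most 1. Genes and copies were located in GENCODE M21 (GRCm38) with BLAST+ 2.17.0, and promoter sequences are RefSeq's. Alternatives used DESeq2 1.42.0, limma 3.58.1, other scalings, filters and thresholds, the replicate number as a block, and each library left out.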

Additional observations from a re-analysis of the deposited data

How the results depend on the processing

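Of the 30 genes, 28 kept their direction and their call in all alternatives tried. Rps2 was no longer called without knockout 2 (log2 fold change 0.48), control 2 (0.46) or control 3 (0.40), at an adjusted p under 0.01 or at an absolute log2 fold change of at least 0.5, and Rps29 was called higher with library size alone. Rps29 had a value of -0.0025 without control 2 and was not called there. Library size alone called 8093 genes higher and 552 lower, and an adjusted p under 0.01 called 1591 higher and 1415 lower. That scaling also gave a summed level 2.95 times higher in knockout hearts, and leaving out 1 library gave 1.78 to 1.94, against 1.84 with all 6. All genes called numbered 1899 to 2903 higher and 1795 to 2934 lower with 1 library left out. DESeq2, used on the same counts, called 2352 higher and 2132 lower. With library size alone the signs of Actc1 (0.0067), Tek (0.26), Cdh5 (0.19), Rgs5 (0.26), Mrps35 (0.0124) and Mrps15 (0.0666) turned, none of them called there. The causes were not tested. TMM without ribosomal protein genes, chosen after seeing the data, left 29 of 30 members higher and a summed ratio of 1.85.

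Replicate numbers did not pair the hearts, with correlations of deviations of -0.23, 0.10 and -0.12 between same-numbered knockout and control hearts. With the replicate number as a block 29 members were higher and none lower, with a median of 0.91, and 2178 genes were higher and 2115 lower.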
